A study of Mus musculus with 4 samples.

Results

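Fhit, Wwox, Lsamp, Park2, Macrod2, Magi2, Dlg2, Immp2l and Csmd1 are very long genes that lie at common fragile sites, and their RIF1 occupancy in activated mouse B cells is described here. The 9 genes were chosen as a list of fragile site genes, by a rule that uses no RIF1 value, out of 22367 protein-coding genes annotated on the mouse build mm9. Each gene was read in 3 regions, namely its annotated span, a window reaching 1 kb to either side of its 5′ end, and the 500 kb on each side of the gene. Counts over a gene are given per 100 kb of gene length.

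RIF1 occupancy was measured by chromatin immunoprecipitation and sequencing (ChIP-seq) in primary splenic B cells. Cells from Rif1FH/FH mice, in which both alleles of Rif1 carry a FLAG-HA tag, made up 2 samples, and cells from C57BL/6 (Rif1WT/WT) mice, with untagged RIF1, made up 2 control samples. All 4 samples were cultured with LPS at 5 µg/ml and IL-4 at 5 ng/ml, which activate B cells and start class switching, and were taken after 72 h. The antibody label names the anti-CD43 MicroBeads used to isolate resting B cells, whereas the protocol describes precipitation with an antibody against the HA tag.

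The analysed data are 1 list of 16332 intervals, found by the authors in each of the Rif1FH replicates and given as positions with no score. Intervals under 50 kb numbered 16043 and are called peaks here, and 289 intervals were at least 50 kb wide and are called wide intervals, taken to be RIF1-associated domains (RADs). Peaks reached at most 14.8 kb and wide intervals began at 90 kb, so that no interval lay near that limit. The list holds no value for a single sample, so neither read depth nor a spread between replicates is known, and Rif1FH was not compared with Rif1WT. Confidence intervals below are 95% intervals for counting error only. In a bulk culture, a site bound in few cells and a site bound weakly in all cells cannot be told apart. At the 5′ ends of 5 genes that mark B cells there were 2 peaks and 3 wide intervals, at those of 3 T cell genes 0 peaks and 1 wide interval, and at those of 3 myeloid genes 0 peaks and 2 wide intervals.

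Common fragile sites are chromosome regions that show gaps and breaks in metaphase when DNA replication is slowed. Many of them fall within very long genes, where transcription takes much of a cell cycle and where replication forks have to travel far because few origins fire inside the gene. RIF1 binds chromatin and, through protein phosphatase 1, acts on the licensed replicative helicase and so on when origins fire, and in the response to DNA breaks it works with 53BP1. Replication timing was not analysed here, so the late replication by which fragile site genes are often described was not checked.

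The genes fall into groups by the work of their proteins. Fhit hydrolyses diadenosine triphosphate, Wwox is an oxidoreductase with WW domains and a tumor suppressor, Park2 (parkin) is a ubiquitin ligase of mitochondrial quality control, Macrod2 removes ADP-ribose from proteins, and Immp2l is a peptidase of the inner mitochondrial membrane. The others work at the cell surface or the synapse. Lsamp is a neuronal adhesion molecule, Magi2 and Dlg2 are scaffold proteins of synapses and cell junctions, and Csmd1 is a membrane protein that controls complement.

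The 5′ ends of these genes differ in base composition, and the 250 bases before the 5′ end of 4 of them are shown because they set a gene with a peak there beside genes without one. Each is given 5′ to 3′ on the strand of the gene, read from build mm9, with every CG in capitals. Immp2l (chr12:41750427-41750676, plus strand) had a peak at the 5′ end and holds 24 CG. Magi2 (chr5:18732614-18732863, plus strand), Csmd1 (chr8:17535587-17535836, minus strand) and Dlg2 (chr7:97650223-97650472, plus strand) had none and hold 29, 16 and 0 CG.
Immp2l: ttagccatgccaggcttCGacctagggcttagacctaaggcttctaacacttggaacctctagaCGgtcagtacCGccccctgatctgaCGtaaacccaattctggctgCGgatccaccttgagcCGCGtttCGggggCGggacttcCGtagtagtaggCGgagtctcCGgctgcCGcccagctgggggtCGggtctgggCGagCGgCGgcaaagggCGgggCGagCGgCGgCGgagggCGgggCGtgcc
Magi2: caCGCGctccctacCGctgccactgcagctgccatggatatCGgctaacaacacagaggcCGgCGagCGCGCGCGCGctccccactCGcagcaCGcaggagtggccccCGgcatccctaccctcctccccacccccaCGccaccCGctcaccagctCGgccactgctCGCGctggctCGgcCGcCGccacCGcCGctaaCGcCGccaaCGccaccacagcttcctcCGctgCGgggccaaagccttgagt
Csmd1: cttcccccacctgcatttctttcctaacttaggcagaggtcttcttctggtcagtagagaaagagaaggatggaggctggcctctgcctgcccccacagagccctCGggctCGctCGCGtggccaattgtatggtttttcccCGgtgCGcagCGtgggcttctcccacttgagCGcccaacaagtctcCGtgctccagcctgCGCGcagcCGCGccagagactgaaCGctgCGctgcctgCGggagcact
Dlg2: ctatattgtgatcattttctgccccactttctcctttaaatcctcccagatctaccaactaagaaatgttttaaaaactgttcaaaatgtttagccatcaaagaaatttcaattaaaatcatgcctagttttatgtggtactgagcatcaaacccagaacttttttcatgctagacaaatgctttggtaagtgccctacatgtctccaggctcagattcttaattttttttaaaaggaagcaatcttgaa

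A RIF1 peak lay at the 5′ end of Fhit, Wwox, Park2, Macrod2 and Immp2l, and none lay at that of Lsamp, Magi2, Dlg2 or Csmd1. These 5 made up 55.6% of the 9 genes (Wilson interval 26.7 to 81.1%). Of all coding genes, 31.9% had a peak at the 5′ end, and of the 191 other coding genes of at least 500 kb 30.9% did (Wilson interval 24.8 to 37.8%). With 9 genes, the interval of their share includes both background shares.

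The peaks at these 5′ ends were wide for peaks of the list, and they lie close to the start of the gene because the window picked them. The peak of Fhit (chr14:11992981-11996260) was 3280 bp wide, that of Wwox (chr8:116962131-116965032) 2902 bp, that of Macrod2 (chr2:140220305-140223066) 2762 bp, that of Immp2l (chr12:41750147-41752501) 2355 bp and that of Park2 (chr17:11032283-11034508) 2226 bp. Over all peaks of the list the median width was 1365 bp, with quartiles of 916 and 1979 bp, so that all 5 were above the upper quartile. A wider interval meets a 5′ window more easily, and its part in this difference was not tested. Widths were not compared with those of other peaks at 5′ ends. Counted in the direction of transcription, their midpoints lay at -0.071 kb from the 5′ end of Fhit, 0.026 kb at Wwox, 0.137 kb at Park2, 0.64 kb at Macrod2 and 0.647 kb at Immp2l. The peak of Park2 also met the window of another annotated start, so it cannot be given to Park2 alone.

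Where no peak lay at the 5′ end, the nearest one was at very different distances. For Dlg2 it was 24.9 kb upstream, at the 5′ end of the neighbouring gene Tmem126b. For Lsamp it was 637 kb downstream, almost at the end of the gene, and for Magi2 it was 681 kb downstream. For Csmd1 it was 1029 kb upstream, outside the gene and beyond its flank.

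Genes have more than 1 annotated start, and 2 of the genes without a peak at their outermost 5′ end had one at the start of another transcript. In Magi2, 3 of 6 distinct 5′ ends had a peak within 1 kb, in Dlg2 1 of 15, in Lsamp 0 of 4 and in Csmd1 0 of 7. Among the genes with a peak at the outermost 5′ end, it was 3 of 6 in Fhit, 3 of 6 in Wwox, 1 of 4 in Park2, 10 of 14 in Macrod2 and 4 of 5 in Immp2l. Ends that lie close together share 1 peak, so these are counts of ends and not of peaks. A gene with more annotated starts meets a peak at one of them more easily. Starts of all transcripts were not counted over other coding genes, so no background share is given.

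CpG content varied widely between these 5′ ends, and the genes with and without a peak overlapped in it. It is given as the CpG ratio, the number of CG found over the number expected from the C and G content, in the same window of 1 kb to either side. With a peak, the ratio was 0.504 in Fhit, 0.553 in Wwox, 0.654 in Immp2l, 0.689 in Park2 and 0.773 in Macrod2. Without a peak, it was 0.0486 in Dlg2, 0.362 in Lsamp, 0.57 in Magi2 and 0.644 in Csmd1. The overlap came from Magi2 and Csmd1, which lay above Fhit and Wwox. Over all coding genes the median ratio was 0.644 with a peak (quartiles 0.53 and 0.749) and 0.305 without (quartiles 0.169 and 0.56). Counting as CpG-rich a window with a ratio of at least 0.6 and at least 50% GC, a peak lay at 3 of 4 CpG-rich 5′ ends of the fragile site genes, Csmd1 being the other, and at 2 of 5 remaining ones, those of Fhit and Wwox. The same split gave 56.0% and 21.6% over all coding genes, and 41.2% and 22.6% over the other coding genes of at least 500 kb.

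**Figure D1:**
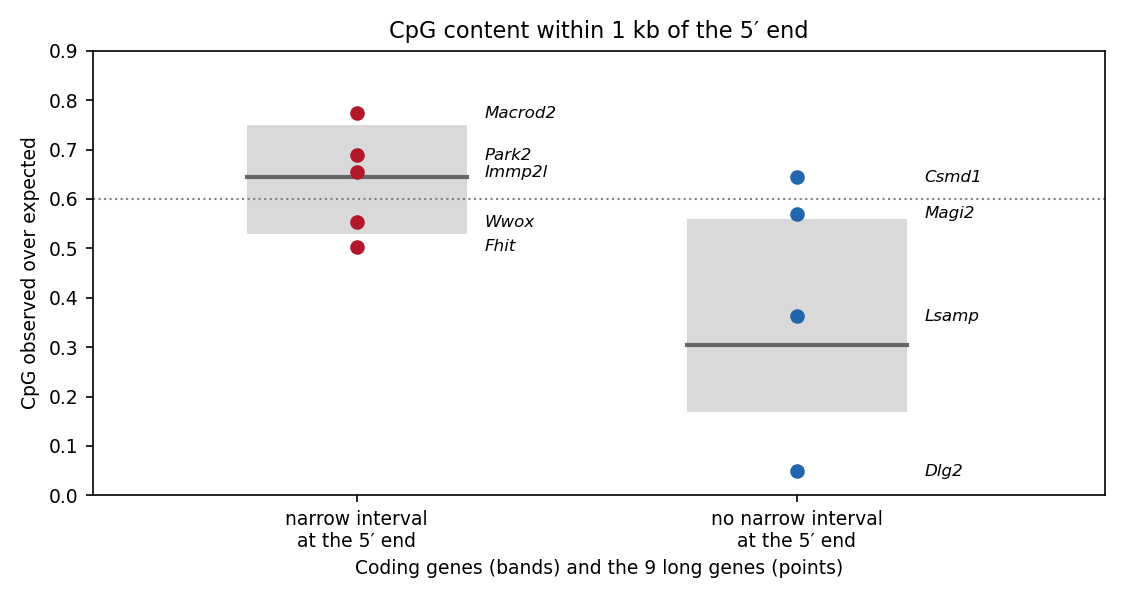
CpG observed over expected within 1 kb of the 5′ end (vertical axis) for coding genes with and without a peak there. Grey bands run from the lower to the upper quartile of all coding genes with a line at the median, points are the 9 fragile site genes, and the dotted line marks the ratio of 0.6. Fhit and Wwox had a peak with ratios of 0.504 and 0.553, below those of Magi2 and Csmd1, which had none.

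Within their spans, the 9 genes held 25 peaks in 12.8 Mb, and 8 of 9 held at least 1 (88.9%, Wilson interval 56.5 to 98.0%). Of all coding genes 35.9% held a peak, and of the other coding genes of at least 500 kb 56.5% did. A longer gene meets a peak more easily, and the 9 genes ran from 649 to 1998 kb. The part of length in these shares was not tested. The pooled density was 0.196 peaks per 100 kb (Poisson interval 0.127 to 0.289). It was 0.244 per 100 kb over the other coding genes of at least 500 kb and 0.653 over the autosomes without N. Of the 393 peaks over the other long genes, 98 lay over Fgfr2 and Gm20388, whose annotated spans each enclose 10 or more 5′ ends of other coding genes. Without these 2 spans, left out after their values were seen, the other long genes had 0.192 per 100 kb. The median gene of the 9 had 0.154 peaks per 100 kb, against a median of 0.103 (quartiles 0 and 0.287) over the 191 other long genes.

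The counts of single genes ranged from 0 to 9. Wwox (ENSMUSG00000004637.9, chr8:116963555-117876608) held 9 peaks in 913 kb, or 0.986 per 100 kb (0.451 to 1.87). Immp2l (ENSMUSG00000056899.3, chr12:41750677-43056575) held 4 in 1306 kb, or 0.306 (0.0835 to 0.784). Magi2 (ENSMUSG00000040003.10, ENSMUSG00000067798.5 and ENSMUSG00000073174.4 joined, chr5:18732864-20211867) also held 4, in 1479 kb, or 0.27 (0.0737 to 0.692). These 3 genes held most of the peaks over the fragile site genes.

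Fhit (ENSMUSG00000060579.5, chr14:10382606-11994549) held 3 peaks in 1612 kb, or 0.186 per 100 kb (0.0384 to 0.544). Dlg2 (ENSMUSG00000052572.8, chr7:97650473-99595513) held 2 in 1945 kb, or 0.103 (0.0125 to 0.371). Lsamp (ENSMUSG00000061080.5, chr16:41532971-42181792), the shortest of the genes, held 1 in 649 kb, or 0.154 (0.0039 to 0.859). In these genes a single peak more or less would move the density by a large part of its value.

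Park2 (ENSMUSG00000073465.3 and ENSMUSG00000023826.7 joined, chr17:11033258-12254519) held 1 peak in 1221 kb, or 0.0819 per 100 kb (0.00207 to 0.456). Macrod2 (ENSMUSG00000068205.7, chr2:140221045-142218702) held 1 in 1998 kb, or 0.0501 (0.00127 to 0.279). In both genes the only peak was the one at the 5′ end, which in Park2 lay over the first of the joined entries. Csmd1 (ENSMUSG00000060924.7, chr8:15892537-17535586) held 0 peaks in 1643 kb, and a count of 0 allows up to 0.183 per 100 kb. From the highest to the lowest density the genes were thus Wwox, Immp2l, Magi2, Fhit, Lsamp, Dlg2, Park2, Macrod2 and Csmd1, and the counting intervals of neighbours in this order all overlapped. Wwox, at the upper end, had a higher density than 94.2% of the 191 other long genes, and Csmd1 was 1 of the genes with none, as were 83 of these 191.

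**Figure D2:**
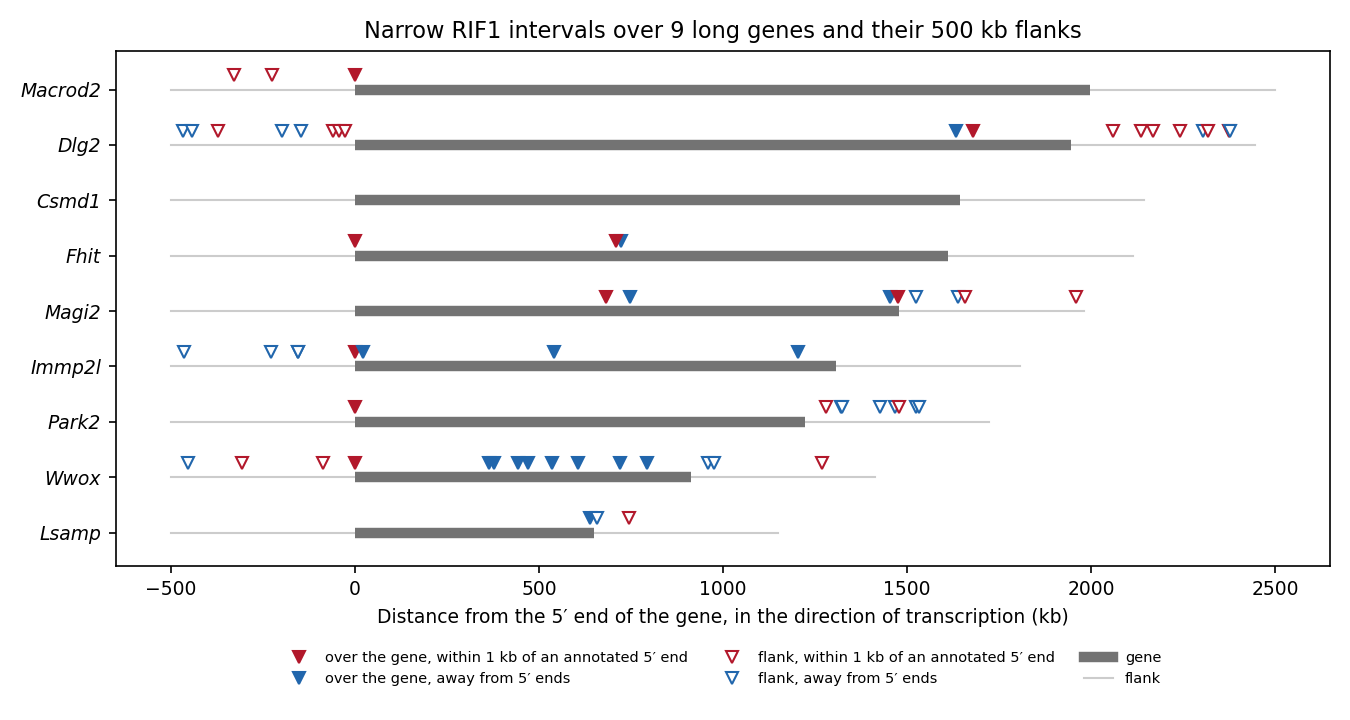
Positions of RIF1 peaks (triangles) along the 9 genes (thick bars, longest at the top) and their 500 kb flanks (thin lines), as distance from the 5′ end in kb in the direction of transcription. Filled triangles lie over the gene and open ones in the flanks, red within 1 kb of an annotated 5′ end of any gene and blue away from one. Wwox carries 9 peaks, Macrod2 and Park2 carry 1 each at the 5′ end, and Csmd1 has none over the gene or in its flanks.

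Of the 25 peaks over the genes, 9 lay within 1 kb of an annotated 5′ end of some transcript and 16 lay away from any. The 9 were 36% of the peaks over the genes (Wilson interval 20.2 to 55.5%), and of all 16043 peaks of the list 48.6% lay at such an end. The midpoints of 21 were in introns of the longest transcript and those of 2 in exons. Peaks at the 5′ end of a gene had a median width of 2762 bp (range 2226 to 3280, n = 5), and those elsewhere over the genes of 1566 bp (366 to 5485, n = 20). Away from 5′ ends, the genes had 0.125 peaks per 100 kb and the 191 other long genes 0.147, or 0.124 without Fgfr2 and Gm20388.

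In Wwox most peaks lay deep inside the gene. All of its 8 peaks beyond the 5′ end had their midpoints in intron 8, the last and longest intron, which makes up 70.0% of the gene (639 kb). That is 1.25 peaks per 100 kb of intron (0.54 to 2.47). The first 361 kb after the peak at the 5′ end held no peak, and the 8 intronic ones then followed at gaps of 12.1 to 112 kb. The widest of them (chr8:117402840-117408324, 5485 bp), 48.4% of the way along the gene, was also the widest peak over any of the 9 genes. None of the 8 lay within 1 kb of an annotated 5′ end, and the closest, at 5.54 kb, was near a 5S_rRNA gene nested in the intron.

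The longest intron held a peak midpoint in 2 of the 9 genes, Wwox and Immp2l. Longest introns of other long genes were not counted, so no background share is given. Where the longest intron held 0, the upper Poisson limit ran from 0.669 per 100 kb in Fhit to 1.82 in Park2. These limits lie above the pooled density of the 9 genes, 0.196 per 100 kb, so an empty intron does not show a lower density. In Immp2l, intron 4 (892 kb, 68.3% of the gene, with the neuronal gene Lrrn3 inside it) held 1 of the gene's 4 peaks, at 79.8 kb from the 5′ end of Lrrn3, which itself had no peak. The others were the peak at the 5′ end, a narrow one of 485 bp at 20.5 kb from it in intron 2, and one in intron 6 at 92.1% of the way along the gene. Of the span of Immp2l, 29.2% (381 kb) is unsequenced N on this build, where no peak can be listed.

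In Fhit, both peaks inside the gene lay in intron 4 (308 kb), with a gap of 10.8 kb between them, at 44.0% and 44.8% of the way along the gene. The wider one (chr14:11283312-11287162, 3851 bp) covered the 5′ end of a Fhit transcript that starts within the gene. The neighbouring intron 5, the longest at 551 kb, held none. In Magi2, 2 peaks lay in intron 2 with a gap of 62.8 kb, the first of them (chr5:19413431-19415025) at the 5′ end of a Magi2 transcript that starts there. Another lay in intron 22, and the last (chr5:20206978-20209336) covered exon 23 and the start of a short separate Magi2 entry at the 3′ end of the gene.

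In Dlg2, both peaks lay in intron 16, at 83.9% and 86.3% of the way along the gene. The first was only 366 bp wide, and the second (chr7:99328705-99330857, 2153 bp) covered the 5′ end of a Dlg2 transcript that starts within the gene. In Lsamp, the single peak (553 bp) lay in the last intron, 98.2% of the way along the gene. Thus the peaks of Lsamp and Dlg2 lay toward the end of these genes, and those of Park2 and Macrod2 at the start.

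The GC content of the peaks is given by their place, with no test. Over the fragile site genes, peaks at 5′ ends had a median of 50.7% GC (42.9 to 54.2%, n = 9) and those away from 5′ ends 46.9% (37.7 to 50.5%, n = 16). Over the whole list the medians were 54.4% and 47.3%. Runs of G were searched as 4 runs of GGG with 1 to 7 bases of any kind between them, on both strands, in the central 300 bases of each peak. Such a run was found in 3 of the 25 peaks (12%), those at the 5′ end of Park2 and at the 3′ end of Magi2 and 1 in intron 8 of Wwox, and in 11.9% of all peaks of the list. Away from 5′ ends it was found in 1 of 16 peaks, and in 6.66% of all such peaks. The central bases of the Wwox peak are shown with the run in capitals, since it is the only one of the 16 (chr8:117683812-117684111, plus strand).
Wwox, intron 8: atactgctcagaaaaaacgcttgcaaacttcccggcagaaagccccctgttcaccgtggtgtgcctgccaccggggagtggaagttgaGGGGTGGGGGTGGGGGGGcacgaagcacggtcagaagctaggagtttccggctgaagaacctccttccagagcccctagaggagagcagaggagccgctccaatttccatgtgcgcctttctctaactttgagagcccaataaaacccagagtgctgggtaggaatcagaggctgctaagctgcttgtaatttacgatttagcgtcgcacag

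The genes themselves were poor in GC, like other long genes. Their spans had 38.2 to 45.8% GC with a median of 39.2%, against medians of 45.6% over all coding genes and 39.8% over the other coding genes of at least 500 kb. Wwox, the gene with the most peaks, was also the richest in GC, above 96.9% of the other long genes, and Park2, with 1 peak, came second at 42.2%. Runs of at least 12 AT units, a repeat known from fragile sites, numbered 8.19 per Mb in Park2, 8.69 in Fhit and 9.86 in Wwox, and 18.0 in both Macrod2 and Dlg2. The median of the 9 genes was 12.8 per Mb and that of the other long genes 14.5, with quartiles of 8.86 and 22.0.

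Much of each gene lay in a stretch with no peak. All of Csmd1 lay in a gap of 3.53 Mb between neighbouring peaks, which ranked 65 by length among the 16023 such gaps of the list. Almost all of Lsamp (98.2%) lay in a gap of 3.27 Mb, 99.9% of Macrod2 in one of 2.5 Mb and 99.9% of Park2 in one of 1.28 Mb. For Dlg2 the gap was 1.66 Mb and took in 83.9% of the gene, for Fhit 1.77 Mb and 55.1%, and for Magi2 1.55 Mb and 46.0%. The gap of 1.65 Mb that met Immp2l took in only 7.85% of it. The longest stretch without a peak inside Immp2l was 659 kb, or 50.5% of the gene, and may include unsequenced N. The longest gap in Wwox was 0.361 Mb and took in 39.6%. The median gap of the list was 37.1 kb, and 538 exceeded 1 Mb. A longer gene meets a long gap more easily, and gaps at other long genes were not measured. Of the 191 other coding genes of at least 500 kb, 83 (43.5%) held no peak. Each gap that met a gene in this way held 0 wide intervals.

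No wide interval overlapped any of the 9 genes or their 500 kb flanks. A count of 0 of 9 allows a share of up to 33.3%. Wide intervals overlapped 22.6% of all coding genes and 5.76% of the other coding genes of at least 500 kb, so the absence was near the background of long genes. The nearest wide interval was 0.921 Mb from Park2 and 1.37 Mb from Macrod2, and for the other genes it was from 4.66 Mb (Csmd1) to 15.6 Mb (Immp2l) away. Since the study kept as peaks only those outside RADs, and none overlapped these genes, this step removed no peak over them.

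Pooled over the 9 genes, the flanks held more peaks per 100 kb than the genes. The flank density was the higher in 6 of the 9 and the lower in Fhit and Wwox, and both were 0 in Csmd1. Flanks also held more per 100 kb in both comparison lists described below. Other long fragile site genes had 0.411 in the flanks and 0.109 in the genes. Long genes used by B cells had 0.9 and 0.788, with overlapping counting intervals. The same count over all other long genes was not made. The 500 kb on each side of the 9 genes, 9 Mb in all, held 42 peaks, or 0.467 per 100 kb (0.336 to 0.631), of which 20 lay at an annotated 5′ end. Of the 42, 17 lay upstream and 25 downstream. Dlg2 alone had 16, with 8 on each side, or 1.6 per 100 kb (0.915 to 2.60) against 0.103 inside the gene. Without Dlg2 the flanks of the other genes had 0.325 per 100 kb. Of the peaks beside Dlg2, 10 lay at 5′ ends, those of Picalm, Crebzf, Tmem126a and Tmem126b upstream and of Ccdc90b, Ankrd42, Pcf11, Rab30 (2 peaks) and Prcp downstream. These genes are named because a peak was listed there.

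Park2 had 8 peaks in its flanks, all downstream, 2 of them at the 5′ ends of Agpat4 and Map3k4. Upstream, the flank held none. Wwox had 3 peaks on each side, including those at the 5′ ends of Nudt7 and Maf, a transcription factor gene. Magi2 had 4, all downstream, and Immp2l had 4, all upstream and none at a 5′ end. Lsamp and Macrod2 had 2 each, and Fhit and Csmd1 had 0, which allows up to 0.3 per 100 kb.

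**Figure D3:**
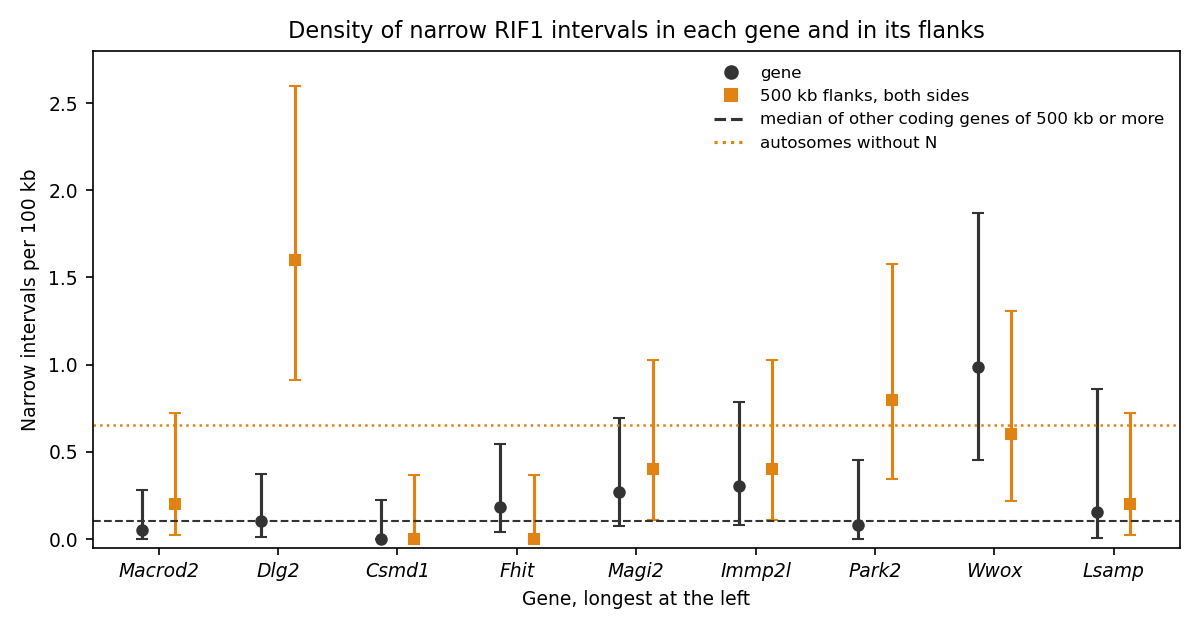
Peaks per 100 kb (vertical axis) in each gene (circles) and in its 500 kb flanks together (squares), with 95% Poisson intervals for counting error, for the 9 genes from the longest to the shortest. The dashed line is the median of the other coding genes of at least 500 kb (0.103) and the dotted line the density of the autosomes (0.653). Dlg2 had 0.103 inside and 1.6 beside the gene, and Wwox was the only gene whose own density exceeded the dotted line.

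Of the nearest coding genes on each side, 17 were read in the same way, and 12 of them (70.6%, Wilson interval 46.9 to 86.7%) had a peak at the 5′ end, against 31.9% of all coding genes. These were 4930452B06Rik beside Fhit, Maf beside Wwox, Igsf11 beside Lsamp, Agpat4 beside Park2, Kif16b beside Macrod2, Gnai1 and Phtf2 beside Magi2, Tmem126b and Ccdc90b beside Dlg2, Dock4 and Dnajb9 beside Immp2l, and Mcph1 beside Csmd1. Those without were Rpl21-ps4 (Fhit), Clec3a (Wwox), Gap43 (Lsamp), Sel1l2 (Macrod2) and Myom2 (Csmd1). The nearest gene was not always close, and the 12 lay from 26.0 kb (Tmem126b) to 2506 kb (Igsf11) away. Dnajb9, Mcph1, 4930452B06Rik and Gnai1 also lay beyond the 500 kb flanks, as did Myom2. Gap43, a neuronal growth gene, had a peak over the gene, at the start of another of its transcripts. The 17 ran from 0.441 kb (Rpl21-ps4) to 400 kb (Dock4), and the background share depends on length. It was 17.4% for coding genes under 10 kb, 40.3% from 10 to 100 kb and 47.5% from 100 to 500 kb. None of the 17 overlapped a wide interval. Genes nested within the 9 were without peaks at their 5′ ends, also Flrt3 in Macrod2 and Lrrn3 in Immp2l.

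Other long genes of common fragile sites were read in the same way, namely Lrp1b, Cntnap2, Ctnna3, Dab1, Dmd, Il1rapl1, Nbea, Rora and Dpyd. Of these 9 other genes, 3 had a peak at the 5′ end (Ctnna3, Nbea and Dpyd) and 6 had a peak over the gene. They held 14 peaks in 12.8 Mb, or 0.109 per 100 kb (0.0598 to 0.184), 7 of them in Rora, a nuclear receptor gene. Their flanks had 0.411 per 100 kb (0.289 to 0.567). Both ranges overlap those of the genes described above, 0.127 to 0.289 over the genes and 0.336 to 0.631 in the flanks.

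Long genes that B cells are known to use held more peaks per 100 kb, but they are shorter genes. Bach2, Foxp1, Ebf1, Aff3, Elmo1, Prkcb, Etv6 and Dock10 held 23 peaks in 2.92 Mb, or 0.788 per 100 kb (0.499 to 1.18), and their flanks 0.9 (0.704 to 1.13). A peak lay at the 5′ end of 4 of them, and a wide interval at that of Bach2 and Foxp1. The counting intervals did not overlap those of the 9 fragile site genes, whose pooled density was 0.196 in the genes and 0.467 in the flanks. These intervals do not cover the spread between genes. Single genes ran from 0 to 1.71 per 100 kb in the B cell list and from 0 to 0.986 among the 9. The 0 of the B cell list is Bach2, which a wide interval of 506 kb overlaps. One of 444 kb overlaps Foxp1, and no peak is listed inside a wide interval. The B cell genes are shorter, from 234 kb (Etv6) to 516 kb (Elmo1), and over all coding genes density falls with length. It was 0.736 peaks per 100 kb for genes of 100 to 500 kb and 0.24 for those of at least 500 kb. All B cell genes but Elmo1 are in the first class, and 0.736 lies within the counting interval of that list. The 9 fragile site genes are in the second, and 0.24 lies within their interval of 0.127 to 0.289. Counting only peaks away from 5′ ends, density did not fall up to 500 kb. It was 0.371 under 10 kb, 0.373 from 10 to 100 kb, 0.403 from 100 to 500 kb and 0.145 from 500 kb. Counted so, the B cell genes had 0.582 and the 9 fragile site genes 0.125. The part of length in the difference was not tested.

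**Figure D4:**
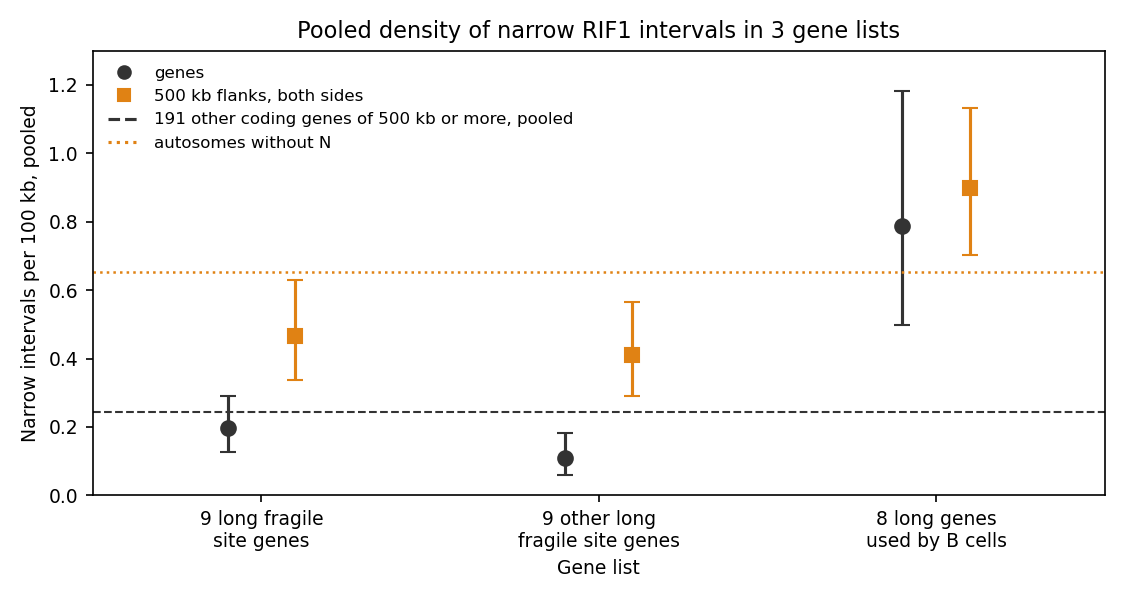
Pooled RIF1 peaks per 100 kb (vertical axis) in the genes (circles) and the 500 kb flanks (squares) of 3 gene lists, with 95% Poisson intervals for counting error. The dashed line is the pooled density of the other coding genes of at least 500 kb (0.244, or 0.192 without Fgfr2 and Gm20388) and the dotted line that of the autosomes (0.653). The 9 fragile site genes had 0.196 in the genes and 0.467 in the flanks, and the genes used by B cells 0.788 and 0.9.

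The share of genes with a peak at the 5′ end did not fall steadily with length. It was 17.4% for coding genes under 10 kb, 40.3% from 10 to 100 kb, 47.5% from 100 to 500 kb and 31.5% at 500 kb or more. Wide intervals overlapped 26.4% of genes in the shortest class and 5.5% in the longest, and no peak is listed inside a wide interval. Among the 191 other long genes, those with the most peaks per 100 kb were Pde4b with 1.92 (10 peaks), Elmo1 with 1.55 (8 peaks) and March1 with 1.41 (12 peaks), each above the 0.986 of Wwox.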

How the data were processed

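As the study describes, the authors trimmed reads (Trim Galore 0.6.4), aligned them to mm9 keeping unique alignments (Bowtie 1.0.0), called narrow and broad peaks per replicate (MACS2 2.2.6) and RADs with EDD, merged them (bedtools 2.27.1) and kept those found in both Rif1FH replicates. Reads that align to more than 1 place were thereby left out. The calling threshold, and whether the Rif1WT samples, the negative control, entered peak calling, are not given in the sources used here. The deposited list holds 3 columns of positions, combined over 2 replicates, and no other unit. Positions are 1-based on mm9 (NCBIM37).

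From it, intervals were counted over GENCODE M1 genes on an overlap of at least 1 bp, with Python 3.11.15, numpy 2.4.6 and scipy 1.17.1. Counting was tested on simulated data. Coding entries that share a symbol (Park2, Magi2) were joined into 1 span. An interval across a gene's end was counted over the gene and not in its flank. Shares have Wilson intervals and densities exact Poisson intervals, at 95%, with a floor of 3 counts where none was found. The members and lists were chosen with earlier results of these data known, and no list was tested. The text names the 9 genes, both comparison lists, genes nested in or starting at a peak over the 9, the nearest coding gene on each side, and the 3 other long genes highest in density. A neighbouring gene, a comparison gene and a sequence are not reported here. Alternatives changed the window, overlap, peak set, gene span, length, flank and annotation entry.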

Additional observations from a re-analysis of the deposited data

How the results depend on the processing

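Over 8 results there were 65 comparisons with another setting, and 62 stayed close, meaning within 1.5 times for a count, within its 95% Poisson interval for a density and between the genes ranked 2 and 8 for the median gene. Some could not move, since no wide interval lay over the genes or their flanks to be added or to cover a gene. For the median gene the limits were broad, from 0.0501 to 0.306 per 100 kb. The number that stayed close is thus no measure of robustness by itself. The flank density moved to 0.222 per 100 kb with only peaks at or above the median width, which by construction leaves out about as many peaks as it keeps, and to 0.325 without Dlg2. With flanks of 1000 kb, 1 wide interval was found, the one beside Park2. Leaving out 1 gene gave pooled densities of 0.135 (without Wwox) to 0.225 (without Csmd1) over the genes and up to 0.525 in the flanks. The number of genes with a peak at the 5′ end was 5 with windows of 0.1, 5 and 10 kb. With any transcript's 5′ end it was 7, for which no background share was counted. Taking the longest annotation entry of each symbol, an alternative chosen after seeing the data, left Park2 with 0 peaks and 4 genes with a peak at the 5′ end, since its peak lies at a shorter entry of 101 kb. Counts of single genes stayed close in 50 of 54 comparisons, and with wider peaks only they fell to 0 in Lsamp, 1 in Dlg2 and 2 in Immp2l. Parts of a gene beyond 1 kb of any 5′ end still touched all 25 peaks. The peaks were not trimmed, so one at a 5′ end counts there if its edge reaches past 1 kb. Only 16 of the 25 lay away from any 5′ end.

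No paired analysis was possible because no value belongs to a single sample here, even though replicate numbers recur in both groups. Nor was any replicate left out, or a stricter calling threshold set, and a RefSeq annotation of the same build was not used here. Depth is unknown, so that a gene with no peak is a gene with none in this list.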
